A study of Mus musculus with 4 samples.

Results

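Cycling C1q macrophages are tumour macrophages that carry complement C1q transcripts together with transcripts of dividing cells. Among 39906 cells from 4 single-cell RNA libraries, 1279 cells met the definition. A member had at least 10 UMIs (unique molecular identifiers, 1 per captured RNA molecule) of C1qa, C1qb and C1qc per 10000 UMIs and at least 3 UMIs of Mki67, Top2a and Pclaf. It also had at most 1 UMI of the T cell genes Cd3d, Cd3e and Cd3g, none of the NK cell gene Ncr1, and at most 1 of the B cell gene Cd79a. There were 383 members in cKO-1 and 367 in cKO-2, against 240 in WT-1 and 289 in WT-2. All of these genes chose the cells, so their levels are no result here.

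The libraries came from tumours of 8-week-old mice, grown under the skin per the design text, after injection of 100000 MC38 cells, a mouse colorectal tumour line. cKO mice carried a conditional knockout of Trim25, a ubiquitin ligase gene, and WT mice were wild type, with 2 libraries of each genotype and no treatment named. The series title places the loss of Trim25 in T cells, while the labels and design text name neither the Cre line nor the strain. Immune cells positive for CD45 were sorted by flow cytometry, and whether a library holds 1 mouse or several is not stated. The labels give the tissue as colon, whereas the design text describes the tumour as subcutaneous, and the files do not settle which is meant.

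C1q is the recognition part of the classical complement pathway and is made by mature macrophages in many tissues and tumours. Tumour macrophages descend from blood monocytes that enter the tissue and lose monocyte genes such as Ly6c2 and Ccr2 as they mature, and mature macrophages can also divide where they are, under growth factors such as CSF1. In a dividing cell, genes for DNA replication are switched on in S phase by E2F factors, and genes for mitosis follow in G2 and M phase.

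The regulatory sequences of replication and mitosis genes differ in known elements, and 4 promoters of genes of the cycling signature described below are shown as examples. Mitosis genes are known for the CHR element (letters TTTGAA) and the CCAAT box (letters CCAAT), which are read by the DREAM and MuvB complexes and by the factor NF-Y. Replication genes are known for E2F sites, searched here as TTTCCCGC or TTTGGCGC. All were searched on both strands in RefSeq promoter windows of 300 bases, 250 before to 50 after the gene start, on GRCm38.p6. Capitals mark the matches, and a match on the opposite strand shows the reverse complement of these letters. The sequences run 5′ to 3′ on the gene's strand, and the genes were picked after the matches were known. Among other promoters looked at, Birc5 had none of these matches, Ccnb1 no CHR match and Rrm2 no E2F match.
Cdk1, the kinase that drives entry into mitosis, at chr10:69352863-69353162 (minus strand), and Ccnb2, its cyclin B2 partner, at chr9:70421505-70421804 (minus strand), hold CHR and CCAAT matches.
Cdk1: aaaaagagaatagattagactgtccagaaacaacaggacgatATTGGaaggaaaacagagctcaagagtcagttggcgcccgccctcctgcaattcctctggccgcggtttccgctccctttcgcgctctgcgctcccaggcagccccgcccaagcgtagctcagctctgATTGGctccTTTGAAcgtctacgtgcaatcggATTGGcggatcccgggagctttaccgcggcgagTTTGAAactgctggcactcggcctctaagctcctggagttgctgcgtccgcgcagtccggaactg
Ccnb2: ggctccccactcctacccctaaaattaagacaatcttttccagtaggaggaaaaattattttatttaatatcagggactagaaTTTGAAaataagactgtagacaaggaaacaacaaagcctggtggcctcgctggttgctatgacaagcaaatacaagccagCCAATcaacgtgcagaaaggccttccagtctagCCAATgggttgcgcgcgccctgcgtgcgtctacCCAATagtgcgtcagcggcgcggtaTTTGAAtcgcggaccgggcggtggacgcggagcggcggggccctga
Mcm5 at chr8:75109259-75109558 (plus strand) and Mcm6 at chr1:128359656-128359955 (minus strand), subunits of the helicase that opens DNA for replication, hold E2F and CCAAT matches.
Mcm5: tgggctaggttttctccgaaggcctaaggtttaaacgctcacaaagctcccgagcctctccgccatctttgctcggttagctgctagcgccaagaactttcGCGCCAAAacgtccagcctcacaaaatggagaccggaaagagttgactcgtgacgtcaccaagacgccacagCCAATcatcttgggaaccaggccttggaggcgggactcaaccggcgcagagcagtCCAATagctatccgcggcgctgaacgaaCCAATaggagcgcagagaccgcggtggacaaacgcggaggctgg
Mcm6: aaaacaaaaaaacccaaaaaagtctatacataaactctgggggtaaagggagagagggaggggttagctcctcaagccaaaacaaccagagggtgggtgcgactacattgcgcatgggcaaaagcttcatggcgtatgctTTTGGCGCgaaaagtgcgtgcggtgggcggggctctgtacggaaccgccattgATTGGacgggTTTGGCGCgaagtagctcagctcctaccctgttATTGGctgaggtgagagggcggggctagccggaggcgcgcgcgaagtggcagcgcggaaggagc

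Over the fixed gene lists, a CHR match was in 65.2% of 46 promoters of G2 and mitosis genes, in 15.2% of 33 promoters of replication genes and in 18.1% of all 27025 gene promoters. An E2F match was in 2.17% of the mitosis promoters, in 36.4% of the replication promoters and in 1.63% of all. CCAAT was in 76.1% of mitosis promoters, 72.7% of replication promoters and 37.9% of all. CHR and CCAAT occurred together in 52.2% of mitosis promoters, in 12.1% of replication promoters and in 7.12% of all. A match describes the letters in the window and is not shown to be a bound site.

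Macrophage genes that the definition did not use were higher in members than in lymphocytes, which should lack them. Adgre1, which encodes F4/80, was at 475.6 and 519.2 CPM (counts per 1000000 of the summed counts) in members of cKO-1 and cKO-2, against 451.1 and 427.8 CPM in WT-1 and WT-2, and had a UMI in 70.9% to 76.6% of members per library. T cells of similar median depth had it in 28.3% to 37.8% and the shallower B cells in 8.97% to 10.4%, a background that any share of cells with a UMI carries here. Csf1r, the receptor for CSF1, had a UMI in 70.0% to 80.4% of members, against 27.4% to 37.9% of T cells and 8.06% to 12.95% of B cells. Apoe, an apolipoprotein made by mature macrophages, was at 1534 to 2409 CPM in members and at 515.7 to 662.1 CPM in T cells, with a UMI in 93.7% to 97.3% of members and in 61.0% to 68.3% of T cells. Ly6c2, a monocyte gene that some T cells also express, had a UMI in 49.9% to 59.5% of members, below its 63.5% to 72.7% in T cells and above its 26.4% to 34.2% in B cells, so its share alone does not place it in the members. Ptprc, which encodes CD45, the protein used in the sort, was detected in 87.1% to 89.6% of members. The 10 macrophage markers, C1qa, C1qb and C1qc among them, summed to 8737 to 10080 CPM. The 6 monocyte markers summed to 3183.5 and 2727.5 CPM in cKO-1 and cKO-2, against 3639.6 and 3728.3 CPM in WT-1 and WT-2. Markers of the other cells listed here were low beside these sums. The definition set part of this contrast, since the T cell markers include the Cd3 genes and the B cell markers Cd79a. The 10 T cell markers summed to 24.6 and 31.3 CPM in cKO-1 and cKO-2, against 45.6 and 39.9 CPM in WT-1 and WT-2, all 10 with a UMI in every library. The 6 NK cell markers summed to 25.4 and 64.5 CPM in cKO-1 and cKO-2, against 163.7 and 40.7 CPM in WT-1 and WT-2, with 5 of 6 detected and Ncr1 at 0 by the definition. The 6 neutrophil markers summed to 183.0 and 34.1 CPM in cKO-1 and cKO-2, against 179.7 and 108.8 CPM in WT-1 and WT-2. The 6 B cell markers summed to 128.0 to 144.7 CPM, the 5 cDC1 markers to 56.5 to 108.2 CPM and the 5 pDC markers, which include the interferon gene Bst2, to 251.6 to 335.9 CPM. Tumour, fibroblast, endothelial and erythroid markers stayed under 40 CPM per list in every library.

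The deposited matrices held 8533 to 12318 barcodes and 96751399 to 127449324 UMIs per library, and library pairs shared 39 to 57 barcodes. C1q transcripts were also found in cells that should lack them: the C1q limit was passed by 26.3% and 25.4% of T cells in cKO-1 and cKO-2, against 18.3% in both WT-1 and WT-2, and by 3.63% to 5.52% of B cells. Neutrophils, of which there were 10 to 56 per library, passed it in 35.7% and 50% of cells in cKO-1 and cKO-2, against 34.5% and 30.6% in WT-1 and WT-2. The median depth was 8515 to 11256 UMIs in T cells, 3250 to 4012 UMIs in B cells and 2213 to 2766 UMIs in neutrophils. The cycling limit was passed by 2.41% to 3.61% of B cells. The T, NK and B cell terms left out 204 and 223 cells in cKO-1 and cKO-2, and 138 and 189 cells in WT-1 and WT-2, that met the C1q and cycling limits. At the edges of the definition, 106 and 86 members in cKO-1 and cKO-2, and 74 and 85 in WT-1 and WT-2, had exactly 3 UMIs of the cycling genes. A further 160 and 121 cells in cKO-1 and cKO-2, and 148 and 135 in WT-1 and WT-2, had 2 and stayed outside. For the C1q limit, 10 to 16 cells per library past the cycling limit had 10 to 12 C1q UMIs per 10000, and 6 to 19 had 8 to 10 and stayed outside.

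Members were deep cells. Their median was 10354 and 11184 UMIs in cKO-1 and cKO-2, against 9406 and 11140 UMIs in WT-1 and WT-2. Non-cycling C1q macrophages, defined by the same terms but with no UMI of Mki67, Top2a or Pclaf, had medians of 2406 and 3680 UMIs in cKO-1 and cKO-2, against 2250 and 2430 UMIs in WT-1 and WT-2. A limit in UMIs is easier to pass in a deep cell, so shares below are also given for cells thinned to 5000 UMIs each, which leaves out shallower cells. Those were 34.6% to 38.4% of members and 56.0% to 70.1% of non-cycling C1q macrophages per library. All limits were applied again to the thinned counts, so the T, NK and B cell limits also became easier to meet. Among cells of 5000 or more UMIs, C1q macrophages numbered 892 and 1005 in cKO-1 and cKO-2 before thinning, and 1023 and 1186 after. In WT-1 and WT-2 they numbered 903 and 904 before, and 1013 and 1079 after. Thinned shares are therefore not of the same cells, and the part of lymphocytes in them was not tested. Scrublet doublet scores above 0.2 were found in 6 of the 1279 members, while its automatic threshold marked no cell in any library and so had not worked.

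A larger share of C1q macrophages was cycling in both cKO libraries than in either WT library. The share was 17.1% (383 of 2236 cells; exact 95% binomial interval 15.6 to 18.8%) in cKO-1 and 18.5% (367 of 1981; 16.8 to 20.3%) in cKO-2, against 11.0% (240 of 2172; 9.76 to 12.4%) in WT-1 and 13.5% (289 of 2140; 12.1 to 15.03%) in WT-2. The intervals cover counting error only. The mean was 17.8 ± 0.988% in cKO and 12.3 ± 1.74% in WT (SD, n = 2 each), and the groups did not overlap. An exact permutation test of 2 against 2 libraries, two-sided, gave p = 0.333, the smallest it can give. After thinning to 5000 UMIs per cell, the share was 12.5% and 13.1% in cKO-1 and cKO-2, against 6.71% and 8.80% in WT-1 and WT-2, again without overlap and with exact p = 0.333.

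As a share of all cells, members made up 4.67% and 3.91% in cKO-1 and cKO-2, against 2.35% and 2.39% in WT-1 and WT-2 (exact permutation p = 0.333). C1q macrophages, cycling or not, were 27.3% and 21.1% of cells in cKO-1 and cKO-2, against 21.2% and 17.7% in WT-1 and WT-2, where the groups overlapped. Of all cycling cells in a library, members were 26.8% and 24.4% in cKO-1 and cKO-2, against 19.3% and 16.2% in WT-1 and WT-2.

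The cycling share of all other cells depended on depth. Without thinning it was 17.5% and 15.4% in cKO-1 and cKO-2, against 12.4% and 14.99% in WT-1 and WT-2, which is the same split as in C1q macrophages (exact permutation p = 0.333). After thinning it was 9.92% and 8.86% in cKO-1 and cKO-2, against 8.20% and 10.4% in WT-1 and WT-2, so the groups overlapped (exact permutation p = 1). Within a library and after thinning, the cycling share of C1q macrophages was 2.59 and 4.21 percentage points above that of the other cells in cKO-1 and cKO-2, whereas it was 1.49 and 1.58 points below it in WT-1 and WT-2. This difference averaged 3.40 ± 1.14 points in cKO and -1.54 ± 0.063 points in WT (SD, n = 2 each; exact permutation p = 0.333, the smallest possible). Without thinning it was -0.362 and 3.13 points in cKO-1 and cKO-2, against -1.39 and -1.49 points in WT-1 and WT-2 (exact permutation p = 0.333).

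**Figure D1:**
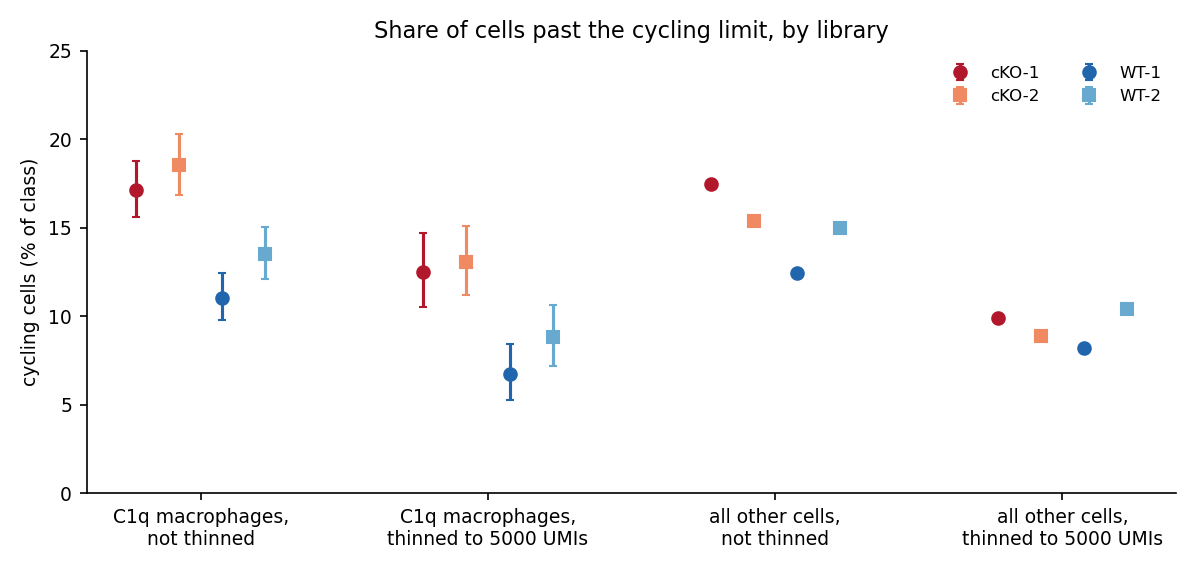
Share of cells past the cycling limit, in percent of each class, for cKO-1 and cKO-2 (red, orange) and WT-1 and WT-2 (dark and light blue); bars on C1q macrophages are exact 95% binomial intervals, which cover counting error only. Without thinning, both cKO libraries lie above both WT libraries in C1q macrophages and in all other cells. With thinning, C1q macrophages cycled at 12.5% and 13.1% in the cKO libraries and at 6.71% and 8.80% in the WT libraries, while the other cells of both genotypes overlapped. All limits were applied again to the thinned counts, so thinned and unthinned classes do not hold the same cells.

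Members carried the 3 genes of the cycling limit in different combinations. These genes chose the cells, and a member at the limit of 3 UMIs can miss a gene by sampling. The shares are therefore no measure of cycle phase. A UMI of Pclaf, which encodes a partner of the replication clamp, was found in 77.8% and 80.4% of members in cKO-1 and cKO-2, against 79.2% in both WT-1 and WT-2. Pclaf alone of the 3 cycling genes was carried by 9.14% and 8.17% of members in cKO-1 and cKO-2, against 11.7% and 7.96% in WT-1 and WT-2. All 3 genes were found in 33.7% and 37.1% of members in cKO-1 and cKO-2, against 34.2% and 36.3% in WT-1 and WT-2. Mki67 or Top2a without Pclaf, a pair of genes that peak in G2 and mitosis, marked 22.2% and 19.6% of members in cKO-1 and cKO-2, against 20.8% in both WT-1 and WT-2.

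These combinations also differed in the replication and mitosis lists, which leave out the 3 genes but are not independent of them. Summed over the 53 G2 and mitosis genes, members with all 3 genes had 6428 and 8127 CPM in cKO-1 and cKO-2, against 4864 and 7123 CPM in WT-1 and WT-2. Members with Pclaf alone had 3617 and 2642 CPM in cKO-1 and cKO-2, against 2179 and 2922 CPM in WT-1 and WT-2. Over the summed replication genes, members with all 3 genes were highest in every library. Rrm2, the regulatory subunit of ribonucleotide reductase, which makes the building blocks of DNA, was a single gene picked after its values were seen. It was at 40.2 and 49.4 CPM with Pclaf alone in cKO-1 and cKO-2 and at 70.9 and 77.0 CPM in WT-1 and WT-2, but at 17.2 and 13.6 CPM in cKO-1 and cKO-2 and at 26.6 and 23.2 CPM in WT-1 and WT-2 in members with Mki67 or Top2a and no Pclaf. These sets hold 23 to 136 cells each and share the members' definition, so no test was made.

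The balance of replication to mitosis transcripts overlapped between the genotypes over all members. The log2 ratio of summed S phase to summed G2 and mitosis counts was -0.65 and -0.94 in cKO-1 and cKO-2, against -0.38 and -0.93 in WT-1 and WT-2. The means were -0.79 ± 0.21 in cKO and -0.65 ± 0.39 in WT (SD, n = 2 each; exact permutation p = 0.667), and the sign of the difference turned when cKO-2 or WT-1 was left out (0.0041 and 0.13). With cells thinned to 5000 UMIs the groups did not overlap, at -0.89 ± 0.088 in cKO and -0.55 ± 0.21 in WT (SD, n = 2 each; exact permutation p = 0.333, the smallest possible).

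**Figure D2:**
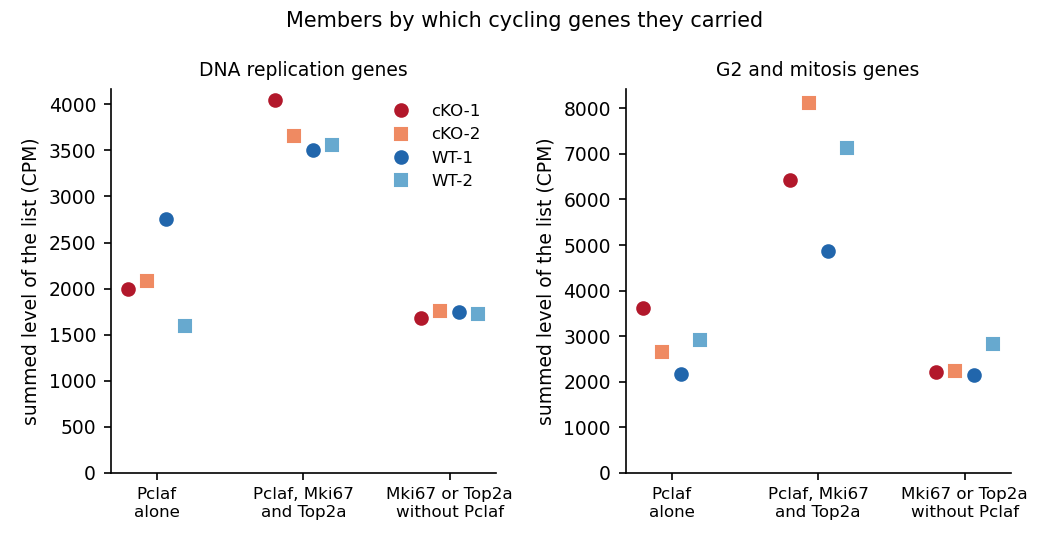
Summed level of 45 replication genes (left) and 53 G2 and mitosis genes (right) in CPM, for members split by which of Pclaf, Mki67 and Top2a they carried, 1 point per library (cKO red and orange, WT blue). Members with all 3 genes were highest on both lists in every library, up to 8127 CPM of mitosis genes in cKO-2. The lists leave out these 3 genes but are not independent of them.

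Beside non-cycling C1q macrophages, members carried higher levels of nearly all listed replication and mitosis genes. This contrast repeats the definition, so it is given as a description with no test, as log2 ratios of (CPM + 1) within each library, averaged over 4 libraries with their SD. All 45 replication genes were higher in members in all 4 libraries, with a median log2 ratio of 1.47, and 51 of 53 G2 and mitosis genes were, with a median of 2.41. The ratio was 1 or more for 34 of the 45 and 42 of the 53, and for 2.6% of all genes measured. Over the 12170 genes measured, 20.2% were above 0 and 17.9% below 0 in all 4 libraries, and the median was -0.00. The 2 exceptions were Psrc1 and Gas2l3, at 0.29 ± 0.39 and 0.26 ± 0.53. Cdk1, whose promoter is shown above, was at 84.2 and 84.8 CPM in members of cKO-1 and cKO-2 and at 51.2 and 100.1 CPM in members of WT-1 and WT-2. In non-cycling cells it was at 11.7 and 10.3 CPM in cKO-1 and cKO-2, and at 11.2 and 9.25 CPM in WT-1 and WT-2. Ccnb2 had a ratio of 2.79 ± 0.55 and Hmmr, a spindle protein gene, the highest of the list at 3.81 ± 0.79. Mcm5 was at 43.7 and 44.4 CPM in members of cKO-1 and cKO-2, and at 36.8 and 39.3 CPM in members of WT-1 and WT-2, a ratio of 1.78 ± 0.22 to non-cycling cells. Pcna, the replication clamp gene, was already at 279.2 to 321.3 CPM in non-cycling cells, and its ratio was 0.90 ± 0.07.

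Among genes outside these lists, the highest ratios also belonged to dividing cells. They were led by Knl1, a kinetochore scaffold gene, at 3.62 ± 0.30, Kif15, a spindle motor gene, at 3.50 ± 0.58, and Cep55, which acts in the last step of cell separation, at 3.30 ± 0.63. Ccna2, Hist1h2ae, Prc1, Stmn1, Mad2l1, Racgap1 and Diaph3 followed at 2.43 to 3.21. Histone, chromatin and tubulin genes were higher in all 4 libraries for 21 of 22 list members, with a median of 0.97. H2afz, a histone variant gene, was at 1238 and 1389 CPM in members of cKO-1 and cKO-2 and at 1127 and 1382 CPM in members of WT-1 and WT-2, a ratio of 0.99 ± 0.16. Genes of nucleotide, serine and folate metabolism, which feed DNA synthesis, were higher in all 4 libraries for 20 of 22, with a median of 0.54. Tk1, thymidine kinase, had a ratio of 2.56 ± 0.36, Dut, which keeps uracil out of DNA, 1.58 ± 0.36, and Psat1, an enzyme of serine synthesis, 1.14 ± 0.22. Dck, the deoxycytidine salvage kinase, and Phgdh, which opens the serine pathway, stood at 0.15 ± 0.10 and 0.16 ± 0.17.

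**Figure D3:**
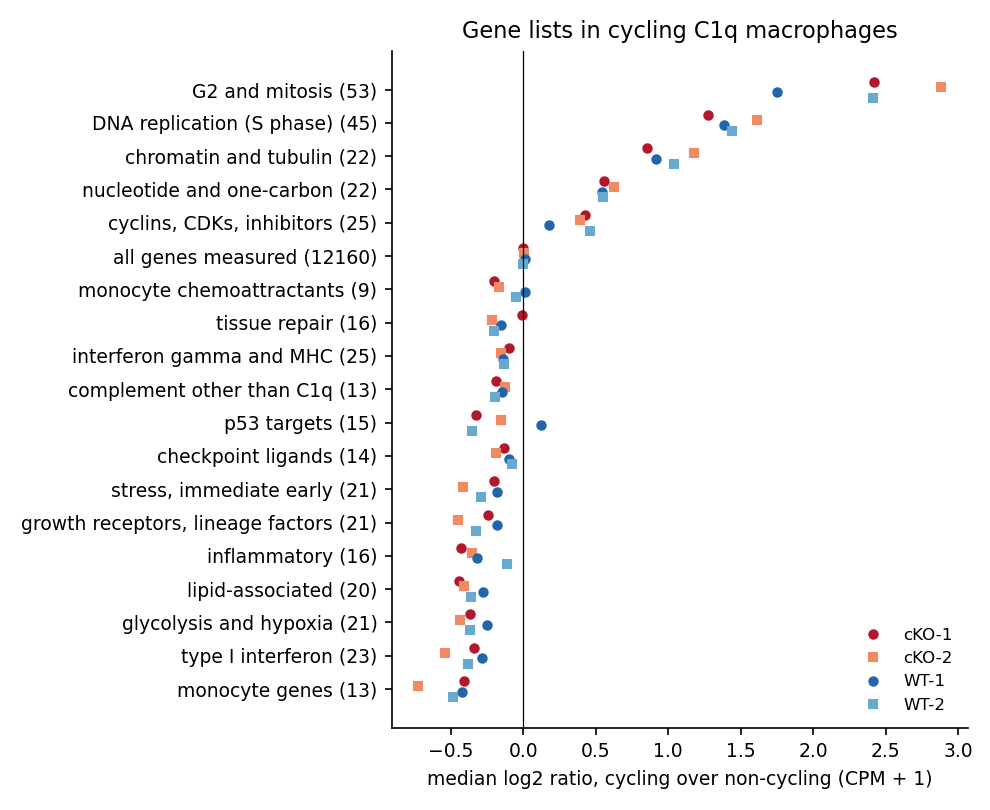
Median log2 ratio of members over non-cycling C1q macrophages for 18 gene lists and all genes (number of genes in brackets), 1 point per library (cKO red and orange, WT blue). Mitosis genes had a median of 2.41 and replication genes 1.47, and monocyte genes were lowest at -0.54.

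The genes that control the cell cycle did not all differ in the same direction. Of 25 measured, 13 were higher in members in all 4 libraries and 3 lower, with a median of 0.33. Cyclin genes of later steps were high, with Ccna2 at 3.21 ± 0.54 and Ccne1, which starts S phase, at 1.76 ± 0.33. E2f7, a repressor that acts late in S phase, was at 2.92 ± 0.57. Cdkn2c, an inhibitor of the cyclin D kinases, was at 2.24 ± 0.26. Among the D cyclins, which pass growth factor signals to the cycle, Ccnd1 had a ratio of 0.20 ± 0.11, Ccnd2 of -0.10 ± 0.09 and Ccnd3 of -0.38 ± 0.05. Cdk4, a kinase partner of the D cyclins, had a ratio of 0.67 ± 0.23 and Cdk6, the other partner, of -0.06 ± 0.13. Cdkn1a, which encodes the inhibitor p21, remained at 234.7 and 286.7 CPM in members of cKO-1 and cKO-2 and at 275.3 and 236.9 CPM in members of WT-1 and WT-2, with a ratio of -0.32 ± 0.13.

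Cycling T and NK cells of the same tumours differed from members in several of these genes, given as levels with no test. In CPM without further scaling, Ccnd1 was at 282.6 and 323.6 CPM in members of cKO-1 and cKO-2 and at 299.9 and 255.3 CPM in those of WT-1 and WT-2. In the 500 to 945 cycling T and NK cells per library it was at 92.1 and 62.7 CPM in cKO-1 and cKO-2, and at 56.8 and 47.7 CPM in WT-1 and WT-2. Cdk6 ran the other way, at 176.4 to 199.2 CPM in members and 433.6 to 496.4 CPM in cycling T and NK cells. Rbl2, which encodes the pocket protein p130, was at 22.7 to 26.7 CPM in members and 92.9 to 107.7 CPM in cycling T and NK cells. Cdkn1a was at 233.1 to 291.1 CPM in members and 89.9 to 119.1 CPM in cycling T and NK cells, and no range of these 4 genes overlapped. Ccnd2 did overlap, at 264.6 to 320.4 CPM in members and 284.0 to 332.0 CPM in cycling T and NK cells. Non-cycling C1q macrophages had 236.8 to 277.5 CPM of Ccnd1 and 171.7 to 204.6 CPM of Cdk6, closer to the members' levels than to those of cycling T and NK cells.

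Several macrophage programmes were lower in members than in non-cycling C1q macrophages. Monocyte genes were lowest, with a median log2 ratio of -0.54 and 10 of 13 below 0 in all 4 libraries. Ly6c2, a surface protein of inflammatory monocytes in mice, was at 599.0 and 454.1 CPM in members of cKO-1 and cKO-2 and at 580.4 and 700.6 CPM in those of WT-1 and WT-2. In non-cycling cells it was at 959.5 and 1298 CPM in cKO-1 and cKO-2, and at 1064 and 1293 CPM in WT-1 and WT-2, so every library was lower in its members, with a ratio of -0.99 ± 0.36. Plac8 stood at -0.81 ± 0.26, while Tgfbi, an extracellular matrix protein gene, was at -0.05 ± 0.06. Of type I interferon genes, 21 of 23 were below 0 in all 4 libraries, with a median of -0.37, among them Isg15 at -0.57 ± 0.10 and Irf7 at -0.52 ± 0.19. Glycolysis and hypoxia genes were below 0 in all 4 libraries for 18 of 21, with a median of -0.35. Slc2a1, the glucose transporter gene, stood at -0.59 ± 0.05, Vegfa at -0.83 ± 0.38 and Egln3, a hypoxia-induced hydroxylase gene, at -0.99 ± 0.31.

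Lipid-associated genes were below 0 in all 4 libraries for 15 of 20, with a median of -0.33. Lgals3, which encodes galectin-3, was at -0.70 ± 0.09, the fatty acid carrier gene Fabp5 at -0.78 ± 0.25 and Apoe at -0.24 ± 0.08. In cells of 5000 or more UMIs, Fabp5 stood at -0.40 and Apoe at -0.09, and with thinning Apoe was above 0 in cKO-2 and WT-2 (0.076 and 0.056). Growth receptors and lineage factors were below 0 in all 4 libraries for 15 of 21, with a median of -0.27, and none was above 0 in all 4. Csf1r itself was level, at -0.03 ± 0.11, with 444.7 and 413.4 CPM in members of cKO-1 and cKO-2 and 392.8 and 393.7 CPM in those of WT-1 and WT-2. Maf, a lineage factor of macrophages, was at -0.16 ± 0.16. The interferon gamma and MHC list, with genes of antigen presentation, had a median of -0.14, with H2-Ab1 at -0.10 ± 0.08 and Cd74 at -0.08 ± 0.09. Checkpoint ligands had a median of -0.20, with Vsir, which encodes VISTA, at -0.21 ± 0.10 and Cd274, which encodes PD-L1, at -0.41 ± 0.29. Medians of the remaining lists were -0.29 for inflammatory genes, -0.23 for stress and immediate early genes, -0.17 for p53 targets, -0.15 for other complement genes, -0.10 for tissue repair genes and -0.08 for monocyte chemoattractants.

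A few macrophage genes were higher in members. Cx3cr1, the fractalkine receptor gene of patrolling monocytes and many tissue macrophages, was at 492.6 and 470.5 CPM in members of cKO-1 and cKO-2 and at 457.0 and 490.7 CPM in those of WT-1 and WT-2. Its ratio to non-cycling cells was 0.49 ± 0.04, with no overlap between subsets, but with cells thinned to 5000 UMIs it was -0.07 in WT-1 and 0.42 to 0.50 in the other 3 libraries. Mrc1, the mannose receptor gene, had a mean ratio of 0.74 ± 0.66 but was below 0 in WT-1, at -0.15.

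The lowest ratios outside the cycle lists were not all macrophage genes. Usp29 stood at -3.95 ± 1.38, with 97.8 and 4.95 CPM in non-cycling cells of cKO-1 and cKO-2 and 263.4 and 81.8 CPM in those of WT-1 and WT-2. In cells of 5000 or more UMIs its ratio was -1.01 and 0.35 in cKO-1 and cKO-2, and 1.16 and -0.53 in WT-1 and WT-2, so its direction differed between libraries there. S100a9 and S100a8, abundant in neutrophils, stood at -1.94 ± 1.49 and -1.41 ± 1.23. S100a9 had a UMI in 15 and 2 members of cKO-1 and cKO-2, and in 6 and 8 members of WT-1 and WT-2. The neutrophil marker sum was 34.1 to 183.0 CPM in members and 81.9 to 461.3 CPM in non-cycling cells, and the part of neutrophil RNA in these ratios was not tested. Ninj1, Il7r, Hilpda, Mmp12, Ly6c2, Ccl5 and Slfn4 followed at -1.07 to -0.86.

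Depth differed between the subsets, so the lists were recomputed in cells of 5000 or more UMIs, with plain CPM. The median log2 ratio was then 2.62 for G2 and mitosis genes, 1.66 for replication genes, -0.57 for monocyte genes, -0.37 for type I interferon genes, -0.22 for glycolysis and hypoxia genes and -0.25 for lipid-associated genes. With every cell thinned to 5000 UMIs, the same 6 lists had medians of 3.09, 2.02, -1.17, -0.63, -0.29 and -0.38. None of these 6 medians changed sign, but thinning left 7 of 21 glycolysis and hypoxia genes below 0 in all 4 libraries and put 2 above 0 in all 4, and it left 10 of 20 lipid-associated genes below 0. Other lists lay further below 0 with thinning, at -0.82 for inflammatory genes, -0.66 for stress and immediate early genes, -0.47 for checkpoint ligands, -0.45 for growth receptors and lineage factors, -0.30 for monocyte chemoattractants and -0.30 for the interferon gamma and MHC list, of which 18 of 25 genes were below 0 in all 4 libraries. In unthinned cells of 5000 or more UMIs these lists stood, in the same order, at -0.24, -0.26, -0.18, -0.29, -0.09 and -0.12. Thinning also changed which cells met the limits. Non-cycling cells of this depth rose from 387 and 515 to 676 and 827 in cKO-1 and cKO-2. In WT-1 and WT-2 they rose from 494 and 470 to 729 and 753. The part of this change in the thinned medians was not tested.

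Within C1q macrophages, the share of cycling cells differed with genes that the cycling limit did not use. All shares here are of cells thinned to 5000 UMIs, with no test, and the cells with a UMI of a gene include some with background UMIs. They also include cells that met the limits only after thinning, and the part of T and NK cells among these was not tested. Among cells without a UMI of Ly6c2, 19.6% (79 of 403) and 23.5% (97 of 413) cycled in cKO-1 and cKO-2, against 10.3% (35 of 341) and 13.4% (46 of 343) in WT-1 and WT-2. Among cells with a UMI of Ly6c2, 7.90% and 7.50% cycled in cKO-1 and cKO-2, against 4.91% and 6.66% in WT-1 and WT-2. The cells without Ly6c2 cycled more in each of the 4 libraries. Ccr2, the receptor that brings monocytes into tissue, split the cKO libraries more than the WT libraries. Of cells without a UMI of Ccr2, 22.7% and 24.3% cycled in cKO-1 and cKO-2, against 7.14% and 13.9% in WT-1 and WT-2. With a UMI of Ccr2 the share was 8.47% and 9.86% in cKO-1 and cKO-2, against 6.61% and 7.89% in WT-1 and WT-2. Cells without Il1b, the interleukin 1 beta gene, cycled at 20.5% and 23.5% in cKO-1 and cKO-2, against 10.4% and 13.6% in WT-1 and WT-2. With Il1b the share was 10.6% and 10.7% in cKO-1 and cKO-2, against 5.68% and 7.52% in WT-1 and WT-2.

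The cycling share is also given by the amount of C1q, as a description only. C1q and the cycling genes both set the definition, so a trend between them is no result here. C1q transcripts were also found in T and B cells, and the part of such background in each range was not tested. From 10 to 20 C1q UMIs per 10000, 8.40% and 8.41% of cells cycled in cKO-1 and cKO-2, against 4.95% and 6.31% in WT-1 and WT-2. At 80 or more, 24.3% (27 of 111) and 23.8% (31 of 130) cycled in cKO-1 and cKO-2, against 7.69% (5 of 65) and 15.6% (15 of 96) in WT-1 and WT-2. The share was higher from each range to the next in cKO-1, cKO-2 and WT-2, whereas in WT-1 it was highest from 40 to 80, at 8.77%, and the last range held only 5 cycling cells.

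Smaller groups of C1q macrophages also stood out. Cells with a UMI of Mgl2, a lectin gene of macrophages and of some dendritic cells, cycled at 24.5% (12 of 49) and 39.5% (15 of 38) in cKO-1 and cKO-2, against 22.2% (8 of 36) and 15.1% (8 of 53) in WT-1 and WT-2. Without Mgl2 the share was 11.9% and 12.2% in cKO-1 and cKO-2, against 6.14% and 8.48% in WT-1 and WT-2. The 5 conventional dendritic cell (cDC2) markers, Mgl2 among them, summed to 33.8 and 95.1 CPM in members of cKO-1 and cKO-2, against 32.3 and 55.6 CPM in WT-1 and WT-2. Flt3, a defining dendritic cell gene, was detected in 2.61% and 5.45% of members of cKO-1 and cKO-2, against 3.33% and 6.57% in WT-1 and WT-2. The part of dendritic cells in the Mgl2 shares was not tested. Cells with a UMI of Arg1, the arginase gene of suppressive macrophages, cycled at 4.11% (3 of 73) and 3.85% (3 of 78) in cKO-1 and cKO-2, against 4.62% (3 of 65) and 5.77% (3 of 52) in WT-1 and WT-2. Without Arg1 the share was 13.2% and 13.7% in cKO-1 and cKO-2, against 6.86% and 8.96% in WT-1 and WT-2. The exact 95% intervals with Arg1 ended at 11.5% and 10.8% in cKO-1 and cKO-2. In WT-1 and WT-2 they ended at 12.9% and 15.9% and included the shares without Arg1. Trem2, the lipid receptor of lipid-associated macrophages, made little difference except in cKO-2, where 19.2% of cells with it and 11.7% of cells without it cycled.

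**Figure D4:**
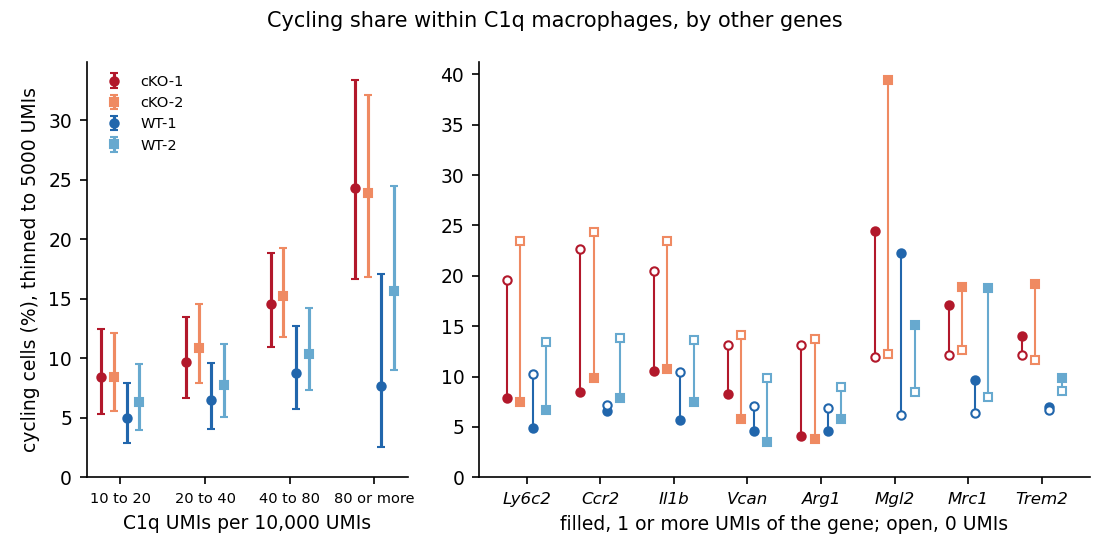
Percent of C1q macrophages that cycled, in cells thinned to 5000 UMIs, by C1q amount (left, with exact 95% binomial intervals for counting error) and by whether a UMI of 8 other genes was found (right; filled, found; open, not found), 1 colour per library (cKO red and orange, WT blue). Cells without Ly6c2 cycled at 19.6% and 23.5% in the cKO libraries and 10.3% and 13.4% in the WT libraries. All limits were applied again to the thinned counts. C1q set part of the definition, so the left panel is a description only.

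The effect of the genotype on the members' own transcripts was tested over all genes, with the targeted gene first. Trim25 (chr11:88999376-89020293, GRCm38, plus strand) was at 129.6 and 119.3 CPM in members of cKO-1 and cKO-2, against 138.3 and 148.4 CPM in WT-1 and WT-2. Both cKO values lay below both WT values, but the log2 fold change of -0.21 ± 0.12 (SE) did not pass edgeR's quasi-likelihood test (adjusted p = 0.940). Over T cells with at least 4 UMIs of the Cd3 genes, Trim25 was at 84.2 and 88.4 CPM in cKO-1 and cKO-2, against 88.1 and 94.8 CPM in WT-1 and WT-2. The T cell groups overlapped. The kit named in the labels reads transcripts at their 3' end, and the deleted part of the gene is not stated in the labels, so the level is no check of the deletion. Vsir was at 92.6 and 102.4 CPM in members of cKO-1 and cKO-2, against 93.7 and 85.6 CPM in WT-1 and WT-2, where the groups overlapped (log2 fold change 0.12 ± 0.13, adjusted p = 0.992).

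No gene passed the threshold of adjusted p under 0.05 among 10925 tested with edgeR in members (0% called). Of these, 254 were higher and 291 lower in cKO at an unadjusted p under 0.05, 4.99% of those tested. DESeq2, run with no prior filter on low counts, called 1 gene, Hpgd, out of 18853 with a p-value (0.0053%). Its default adjustment can cover fewer genes than these, so this share does not compare directly with that of edgeR. The genes below are those of smallest p and are given as values.

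Hpgd, which encodes the enzyme that breaks down prostaglandins (chr8:56294585-56321043, GRCm38, plus strand), was measured lower in cKO members. It was at 12.2 and 6.30 CPM in cKO-1 and cKO-2, against 38.2 and 37.0 CPM in WT-1 and WT-2, with a log2 fold change of -2.01 ± 0.27 and adjusted p of 0.154 with edgeR and 0.00203 with DESeq2. Its UMIs came from few cells: 19 and 11 of 383 and 367 members in cKO-1 and cKO-2, against 16 and 29 of 240 and 289 members in WT-1 and WT-2. In non-cycling C1q macrophages its log2 fold change was -0.80 (adjusted p = 0.298), and the difference of both effects did not pass (-1.24, adjusted p = 0.704). Flt1, a VEGF receptor gene, was at 15.5 and 8.89 CPM in cKO-1 and cKO-2, against 36.9 and 36.5 CPM in WT-1 and WT-2 (-1.58 ± 0.25, adjusted p = 0.209). Radx, whose product acts at stalled replication forks, was at 36.4 and 28.3 CPM in cKO-1 and cKO-2, against 7.44 and 12.4 CPM in WT-1 and WT-2 (1.67 ± 0.26, adjusted p = 0.209). Cd80, a costimulatory ligand for T cells, was at 61.9 and 55.0 CPM in cKO-1 and cKO-2, against 33.8 and 25.9 CPM in WT-1 and WT-2 (0.98 ± 0.18, adjusted p = 0.378). None of these 4 genes had overlapping groups, and a lack of overlap in the same direction was seen in 17.3% of all genes for higher and 17.1% for lower values in cKO.

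The other genes of smallest p had adjusted p of 0.321 to 0.557. Dusp2 (0.75), Ptms (0.76), Blnk (0.61), Polq (1.06), Tnfsf13b (0.55) and Emp1 (0.64) had positive log2 fold changes. Plxdc2 (-1.05), Ifitm6 (-0.79), Klf2 (-0.79), Adam19 (-1.14), Fchsd2 (-0.60), Apoc2 (-0.60), Tmem67 (-1.07) and Cd63 (-0.52) had negative ones. Tnfsf13b encodes the B cell survival factor BAFF, Polq a polymerase of DNA break repair, and Klf2 a factor of quiescence in several cell types. Gzmc and Xcl1, genes of activated T and NK cells, also had negative values, of -2.15 and -1.56. Gzmc was at 29.3 and 40.6 CPM in cKO-1 and cKO-2, against 243.2 and 69.3 CPM in WT-1 and WT-2. In WT-1, 612 of its 719 UMIs lay in 1 cell (85.1%), and with cells thinned to 5000 UMIs its log2 fold change was 0.22. Xcl1 had 54 of its 173 UMIs in WT-1 in 1 cell, and without cells that carried T or NK marker UMIs its log2 fold change was 0.05. The NK marker sum of members was also highest in WT-1, at 163.7 CPM.

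**Figure D5:**
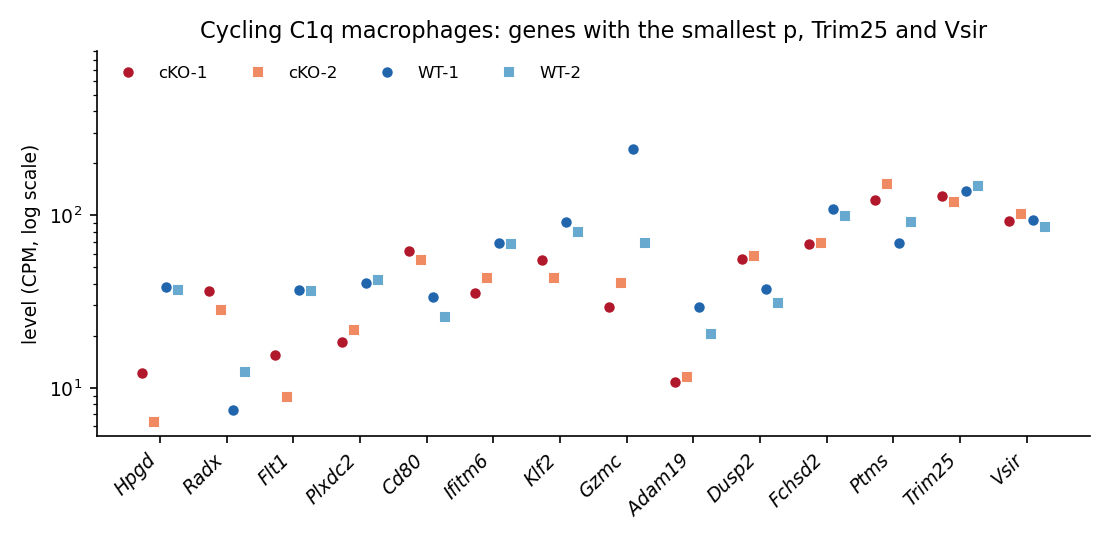
Level in CPM (log axis) in members of each library for the 12 named genes of smallest p, with Trim25 and Vsir, 1 point per library (cKO red and orange, WT blue). Hpgd was at 12.2 and 6.30 CPM in the cKO libraries and 38.2 and 37.0 CPM in the WT libraries, and the Gzmc value of WT-1 stands apart at 243.2 CPM.

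By gene list, no member passed the test, and the lists are described by their values. Of 20 glycolysis and hypoxia genes, 19 had a positive log2 fold change, with a median of 0.26, against -0.00 over all genes, where 5399 of 10918 genes outside the definition were positive. Groups did not overlap for 12 of them on the higher side, beside 17.3% of all genes, and 5 had an unadjusted p under 0.05, beside 2.32% of all genes on the higher side. Pkm, pyruvate kinase, was at 459.5 and 389.8 CPM in cKO-1 and cKO-2, against 330.4 and 342.1 CPM in WT-1 and WT-2 (log2 fold change 0.34 ± 0.12, adjusted p = 0.934). Vegfa was at 58.6 and 41.9 CPM in cKO-1 and cKO-2, against 39.6 and 25.1 CPM in WT-1 and WT-2 (0.65 ± 0.23, adjusted p = 0.934). The median of the list was 0.08 to 0.41 over the 4 pairs of a cKO with a WT library.

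Of 13 monocyte genes, 11 had a negative log2 fold change, with a median of -0.28. Groups did not overlap for 7 of them on the lower side, beside 17.1% of all genes, and 4 had an unadjusted p under 0.05, beside 2.66% of all genes on the lower side. Plac8 was at 1540 and 1347 CPM in cKO-1 and cKO-2, against 1866 and 1940 CPM in WT-1 and WT-2 (-0.40 ± 0.12, adjusted p = 0.898). Vcan, a proteoglycan gene, was at 49.1 and 44.1 CPM in cKO-1 and cKO-2, against 59.5 and 80.4 CPM in WT-1 and WT-2 (-0.59 ± 0.17, adjusted p = 0.875). Ly6c2 overlapped between the genotypes, at 602.2 and 458.0 CPM in cKO-1 and cKO-2, against 586.8 and 706.0 CPM in WT-1 and WT-2. The list's median lay between -0.48 and -0.16 over the 4 pairs of libraries.

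Type I interferon genes were negative for 17 of 23, with a median of -0.12, and 5 of them had an unadjusted p under 0.05. These were Ifit1, Ifit2, Ifit3, Ifi205 and Cmpk2, with log2 fold changes of -0.39 to -0.35 and no overlap, beside 2.66% of all genes at such a p and 17.1% without overlap on the lower side. Inflammatory genes were positive for 11 of 16, with a median of 0.25. Il1b was at 2465 and 2257 CPM in cKO-1 and cKO-2, against 1753 and 1808 CPM in WT-1 and WT-2 (0.41 ± 0.12, adjusted p = 0.862), while Acod1, which makes itaconate, stood at -0.42 ± 0.13 (adjusted p = 0.916). With cells thinned to 5000 UMIs the inflammatory median was -0.36, so its direction turned under that setting.

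G2 and mitosis genes were positive for 47 of 53, with a median of 0.27, and replication genes for 30 of 45, with a median of 0.08. The definition selects on Mki67 and Top2a, which belong with the mitosis genes, so this list is not independent of it. The median for mitosis genes was 0.49 and 0.80 for cKO-1 and cKO-2 against WT-1, but -0.18 and 0.15 against WT-2, and without WT-1 it was -0.00. WT-1 had the lowest Cdk1 level, at 51.2 CPM against 84.2 to 100.1 CPM in the other 3 libraries. Medians of the other lists lay between -0.10 for lipid-associated genes and 0.13 for other complement genes.

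The genotype effect was then compared between members and non-cycling C1q macrophages in 1 model with the library as a term. None of 12170 genes passed (edgeR, 0% called), with 552 at an unadjusted p under 0.05, or 4.54%. The smallest adjusted p among the genes named above was 0.154, for Xcl1, with 1 cell holding 32.5% of its UMIs in non-cycling cells of cKO-2. In the non-cycling C1q macrophages alone, edgeR called 4 of 11916 genes (0.0336%). Among them Adgre4, a macrophage adhesion receptor gene, was lower, at 32.4 and 28.5 CPM in cKO-1 and cKO-2, against 68.2 and 71.2 CPM in WT-1 and WT-2 (log2 fold change -1.20 ± 0.12, adjusted p = 0.0164). Nr4a3, an orphan nuclear receptor gene, was higher, at 73.3 and 67.7 CPM in cKO-1 and cKO-2, against 38.6 and 30.3 CPM in WT-1 and WT-2 (1.03 ± 0.14, adjusted p = 0.049). The other 2 genes called were Ptprm, a receptor phosphatase gene, and Gm12703, both higher. In members, Adgre4 averaged 31.5 ± 16.3 CPM in cKO and 52.7 ± 13.04 CPM in WT (SD, n = 2 each; log2 fold change -0.72 ± 0.30, adjusted p = 0.940), and Nr4a3 was at 37.6 and 53.3 CPM in cKO-1 and cKO-2, against 60.9 and 31.3 CPM in WT-1 and WT-2 (-0.00 ± 0.27, adjusted p = 1.000). The differences between the effects in members and in non-cycling cells had adjusted p of 0.983 for Adgre4 and 0.699 for Nr4a3.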

How the data were processed

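The authors deposited 1 matrix of whole-number UMI counts per gene and barcode for each of 4 libraries, made with a Chromium 3' v3 kit per the labels' protocols, although the deposited barcodes, at 20 letters, are longer than that kit's. The submitters' processing notes name Cell Ranger, STAR and mm10, with no versions, annotation or cell-calling settings. Cells were kept from 300 genes and 500 UMIs up, with mitochondrial genes giving no more than 15% of UMIs. The members and the 18 gene lists were chosen with earlier results of these data known. Feature identifiers matched GENCODE vM21 (GRCm38) for 32235 of 32285.

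Raw counts were summed per library over members, and over non-cycling C1q macrophages, with no cell used as a replicate. The test of sums was that of edgeR 4.0.16, run in R 4.3.3 (scaling by TMM, filterByExpr, quasi-likelihood F test, Benjamini-Hochberg adjustment over all genes, threshold 0.05, two-sided), checked first on simulated data. The interaction fit had the library as a term. A fold change is the log2 of cKO over WT with its SE, and members over non-cycling ratios are log2 of CPM + 1, with CPM scaled by TMM within the fit they come from, so a level can differ slightly between fits. Summed marker lists, cycle positions and T and NK comparisons use plain CPM. Alternatives used RLE factors, library size alone, no filter, a replicate block, other limits, thinning, doublet scores, leaving out each library, and DESeq2 1.42.0. Cells of 5000 or more UMIs, and cells without T or NK marker UMIs, were alternatives added after seeing the data. Scrublet ran in scanpy 1.11.5 with python 3.11.15. The labels do not say that each library is another animal, and p-values therefore reflect only how far these libraries vary, which may be technical. Library pairs differed by a chi-square of 44.0 to 102.2 per degree of freedom, so none repeated another.

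Named genes were those past the threshold, filled to 20 by smallest p at 10 CPM or more, with Trim25 and Vsir, and for members over non-cycling cells the 10 highest and 10 lowest ratios at 50 CPM or more with 1 sign in all 4 libraries. Genes named from the lists, and the gene splits of the cycling share, were picked after their values were seen.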

Additional observations from a re-analysis of the deposited data

How the results depend on the processing

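The direction of both cell shares was the same under every alternative run. The difference in the cycling share of C1q macrophages, cKO minus WT, was 5.55 percentage points and lay between 4.32 points at a limit of 5 cycling UMIs and 7.30 points in cells of 5000 or more UMIs, and between 4.32 and 6.78 points with each library left out in turn. The share of all cells differed by 1.92 points (1.54 to 2.30 points with a library left out), and by 0.914 points without cells that carried T or NK marker UMIs. The log2 ratio of S phase to mitosis counts differed by -0.14, and with each library left out in turn by -0.42 to 0.13, with a changed sign without cKO-2 (0.0041) and without WT-1 (0.13). The count of genes called between genotypes, 0 in the main test, was 97 with no filter on low counts, 14 after thinning to 5000 UMIs, 2 without cells with T or NK marker UMIs, 1 with DESeq2, and 29 to 127 with each library left out in turn, where the lone library of a genotype is assumed to vary like the others. The interaction count, 0 in the main test, was 54 with no filter, 11 after thinning, 3 at a limit of 2 cycling UMIs, 1 with library size alone, 1 in cells of 5000 or more UMIs, and 21 to 96 with each library left out. With the replicate number as a block the counts were 2 and 6, the share differences stayed at 5.55, 1.92 and -0.14, and the exact sign-flip test of 2 pairs cannot go below p = 0.5. Number-wise deviations correlated at 0.0834 over 6090 genes, and nothing in the labels pairs the libraries. Hpgd kept its sign in 16 of 16 alternatives and passed the threshold in 8 of them, with adjusted p up to 0.688. In all, 4 of the named genes changed sign under an alternative: Gzmc (0.22) and Emp1 (-0.74) after thinning, Xcl1 (0.053) without cells with T or NK marker UMIs and Vsir (-0.017) at a limit of 2 cycling UMIs. Beyond these, 59 other combinations of a named gene and an alternative passed the threshold that the main test did not, and 47 list medians moved by more than the SD over pairs of libraries. The causes were not tested. Counts limit low genes: Hpgd rested on 11 to 29 cells per library.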
